A study of Mus musculus with 2 samples.

Results

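The genes described here are 10 genes through which cells sense lipopolysaccharide (LPS) and other microbial products, measured in resting hepatocytes cultured from control and *Drp1*LiKO livers. They are *Lbp*, *Cd14*, *Ly96*, *Tlr4*, *Tlr2*, *Tlr7*, *Tlr9*, *Myd88*, *Ticam1* and *Irak3*, and they were chosen by name as known parts of this pathway. They were found on the array by the gene name that its design gives to each probe, with every probe kept in view, which gave 18 probes of 56600 with a value and 10 gene names of 37074. Total RNA was taken 24 h after seeding from cells on a C57BL/6 background that had received no LPS, and 1 array was hybridized for each genotype. The labels call the control a wild type, whereas the study's methods describe it as *Drp1*flox/flox littermates without Cre. *Drp1*LiKO mice carried the same floxed alleles and 1 copy of *Alb-Cre*, in which the albumin promoter drives the recombinase, which directs the deletion to hepatocytes. Neither the number of animals behind each culture nor their age or sex is stated for these arrays. Since neither genotype was replicated, differences are described for these 2 arrays alone and are not tested.

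LPS is a component of the outer membrane of Gram-negative bacteria. LPS-binding protein, which hepatocytes secrete into the blood, hands LPS to CD14, and CD14 passes it to the complex of MD-2 (encoded by *Ly96*) and TLR4 on the cell surface. TLR4 then signals through the adaptor MyD88 to NF-kB and cytokine genes such as *Tnf*, and from endosomes through the adaptor TRIF (encoded by *Ticam1*) to type I interferon. Kupffer cells, the resident macrophages of the liver, are the best known responders, and hepatocytes carry the receptor complex too.

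Each probe was read as a processed signal, a linear intensity after subtraction of background. Signals are given as deposited, without scaling between arrays. Log2 ratios are *Drp1*LiKO minus control after the 75th percentile of each array, which was 313 for control and 356 for *Drp1*LiKO, was set equal. A gene counted as past the threshold at a Z score of 2, where the Z score is the distance of a ratio from the mean over detected probes in units of the SD. This corresponded to a log2 ratio of 1.30 for higher and -1.31 for lower expression. A probe was detected if its signal was well above background on at least 1 array. As the only measure of error, the scatter between repeated spots of a probe on an array was taken from 300 probes printed 10 times. The interval beside a ratio is the 95% range of that scatter among the 30 such probes nearest in signal. The weakest probes all share the scatter of the dimmest of these, which may differ from their own. The interval holds no variation between animals, cultures or hybridizations. The targeted gene, listed as *Dnm1l*, read 2602 on the control and 1217 on the *Drp1*LiKO array, a log2 ratio of -1.28 that lay just short of the threshold at a Z score of -1.95.

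None of the 10 genes passed the threshold in either direction, and neither did any of their 16 detected probes. Of the 20165 genes detected on the array, 6.22% did so, 3.46% with higher and 2.76% with lower expression in *Drp1*LiKO cells, and of all detected probes 5.43% did. By its brightest probe every one of the 10 genes was well above background on both arrays, and the ratios ran from -0.71 for *Tlr7* to 0.54 for *Lbp*. The ratio was above 0 for 4 genes (*Lbp*, *Cd14*, *Ticam1* and *Irak3*) and below 0 for 6. Their median was -0.06, beside -0.05 for all detected genes. The interquartile range of all detected genes ran from -0.27 to 0.21, and 7 of the 10 genes fell in that range. Before scaling, the signal of the brightest probe was higher in *Drp1*LiKO cells for 8 of the 10 genes and lower for *Tlr7* and *Myd88*, so the sign for *Tlr2*, *Tlr4*, *Tlr9* and *Ly96* depends on how the arrays are set equal.

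**Figure D1:**
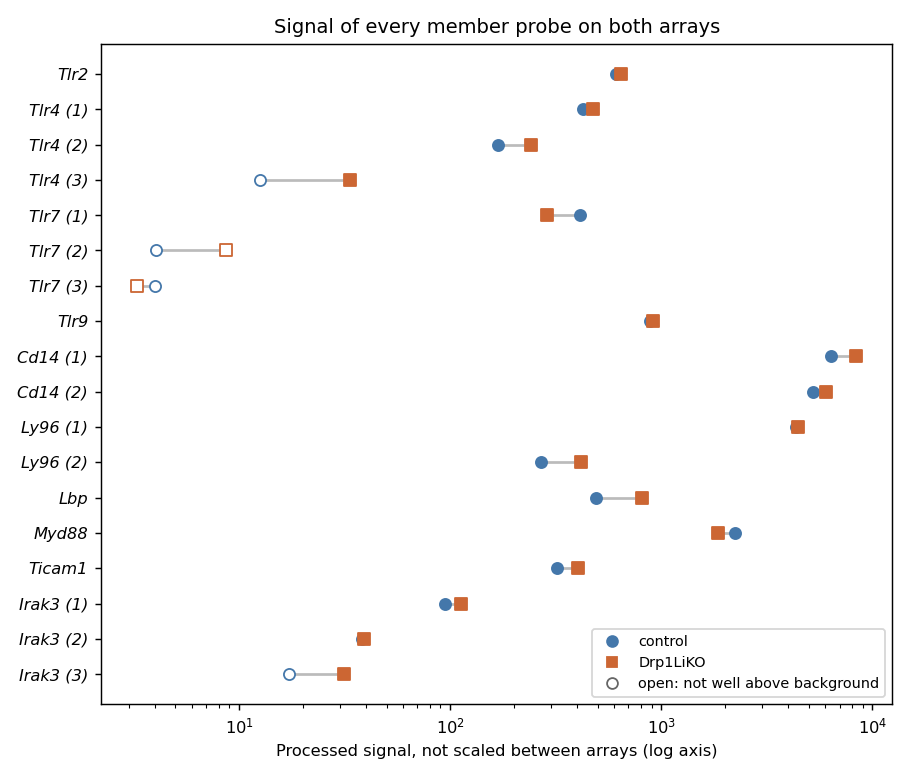
Processed signal of all 18 probes of the 10 genes in control (circles) and *Drp1*LiKO cells (squares), on a log axis and not scaled between arrays. Open symbols were not well above background. Probes of one gene are numbered in the order the text gives them, and signals of different probes are not comparable with each other. The 2 symbols of a probe lie close together for most genes, and the third probe of *Tlr4* and of *Irak3* was above background in *Drp1*LiKO cells only.

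The proteins that bind LPS and hand it on come first. *Lbp*, which encodes LPS-binding protein, had the highest ratio of the 10 genes. Its probe (NM_008489, chromosome 2 of mm9, plus strand) is placed from 158154142 to 158157684, a span of 3543 bases that a probe of 60 bases can only cover across a gap such as an intron. The signal was 494 on the control and 813 on the *Drp1*LiKO array, and the log2 ratio was 0.54 (1.45-fold) with an interval of 0.27 to 0.81. *Lbp* was thus higher in *Drp1*LiKO cells by more than the scatter between spots, and 88.7% of all detected genes had a lower ratio. *Lbp* is also an acute phase gene of the liver. In a list of 18 other acute phase genes, all detected, the median ratio was -0.28, and 14 had a ratio below 0.

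*Cd14* encodes the co-receptor that concentrates LPS at the cell surface, and both of its probes (NM_009841, minus strand) were bright. The first read 6407 on the control and 8419 on the *Drp1*LiKO array, a log2 ratio of 0.21 with an interval of 0.09 to 0.34. The second read 5251 and 6071, a log2 ratio of 0.03 with an interval of -0.10 to 0.16. Both probes thus placed *Cd14* within 1.16-fold of control, and only the first lay outside the scatter between spots.

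*Ly96* encodes MD-2, the pocket of the receptor complex into which LPS fits. The array holds 2 probes for it on chromosome 1 of mm9, plus strand, and they disagreed in sign. The brighter one (NM_016923, 16699612 to 16699671) read 4359 on the control and 4454 on the *Drp1*LiKO array, a log2 ratio of -0.15 with an interval of -0.29 to -0.01. The other (NM_001159711, 16678610 to 16678669) had 271 and 415, a log2 ratio of 0.43 with an interval of 0.12 to 0.74. Across the 6055 genes with more than 1 detected probe, the median gap between the highest and lowest ratio of a gene was 0.24 and the 90th percentile was 0.78, so the gap of the *Ly96* probes lay between these. The sequences of both are shown because the brighter probe consists in large part of one repeat. In the 30 bases printed for each, from base 20 of the first and base 13 of the second, capitals mark a run of alternating bases of at least 11.
Ly96, brighter probe: ACACACACACACACACACACACACACACAC
Ly96, other probe: tctcccatattgactgaatctgagaagcaa
The AC run of the brighter probe is 31 bases long. Of all probes on the array, 94 hold a run of alternating bases of 20 or more, and all 94 (100%) were detected, beside 53.3% of the probes whose longest run was under 11. The part of the repeat in the signal of the brighter probe was not tested. Without probes of this kind, *Ly96* had the ratio of its other probe.

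Of the receptors, *Tlr4* recognizes LPS itself. It has 3 probes on chromosome 4 of mm9, plus strand, and none passed the threshold. The first, at 66591199 to 66591258, is tied in the array's design to an Ensembl transcript and lies well downstream of the other two. Its signal was 425 on the control and 477 on the *Drp1*LiKO array, a log2 ratio of -0.02 with an interval of -0.31 to 0.28. The second (NM_021297, 66503724 to 66503782) had 169 and 240, a log2 ratio of 0.33 with an interval of 0.01 to 0.65. The third (NM_021297, 66500344 to 66500403) was not well above background in control cells at 12.5 and was so in *Drp1*LiKO cells at 33.5, which set a lower bound of 0.70 on its log2 ratio (at least 1.62-fold). With normexp the log2 ratio of this probe was 0.05 and from the deposited intensities 0.38. Both probes of the RefSeq transcript thus gave *Tlr4* a higher value in *Drp1*LiKO cells, and the brightest probe, which represents the gene in the counts, gave almost none. Which transcripts each probe reads was not analysed here. For the first and the second probe, 30 bases of each are printed to identify them, from base 13 and base 1.
Tlr4, first probe: tgtgcttcatgtccctgcttgagtttctgc
Tlr4, second probe: tgtgatagggctttaaatagttgagctaat

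*Tlr2*, the receptor for bacterial lipoproteins, has 1 probe (NM_011905, chromosome 3 of mm9, 83640344 to 83640403, minus strand). The signal was 614 on the control and 646 on the *Drp1*LiKO array, a log2 ratio of -0.11 with an interval of -0.36 to 0.14. *Tlr9*, the endosomal receptor for unmethylated CpG DNA, also has 1 probe (NM_031178, chromosome 9, 106128979 to 106129038, plus strand). Its signal was 881 and 911, a log2 ratio of -0.13 with an interval of -0.35 to 0.08. For both genes the difference lay within the scatter between spots.

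*Tlr7*, the endosomal receptor for single-stranded RNA, had the lowest ratio of the 10 genes. Its brightest probe (NM_001290755, chromosome X of mm9, 163742863 to 163742922, minus strand) read 413 on the control and 287 on the *Drp1*LiKO array, a log2 ratio of -0.71 with an interval of -1.02 to -0.39. This was 1.63-fold lower in *Drp1*LiKO cells, and 7.87% of all detected genes had a lower ratio. The other 2 probes of *Tlr7* were not well above background on either array, at 4.04 and 8.63 for the second probe and at 3.98 and 3.28 for the third. The value for *Tlr7* thus rests on 1 probe of 3, and this probe begins with a run of TC. Its first 30 bases are shown beside 30 bases of the second probe, from base 2, with a run of at least 11 alternating bases in capitals.
Tlr7, first probe: TCTCTCTCTCTgatactgaactgtaccaga
Tlr7, second probe: ataaatgaaggtctgaatttttcctaacag
Of the 215 probes with a run of 11 to 19 alternating bases, 86.0% were detected. With such probes left out, *Tlr7* had no detected probe and no ratio.

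**Figure D2:**
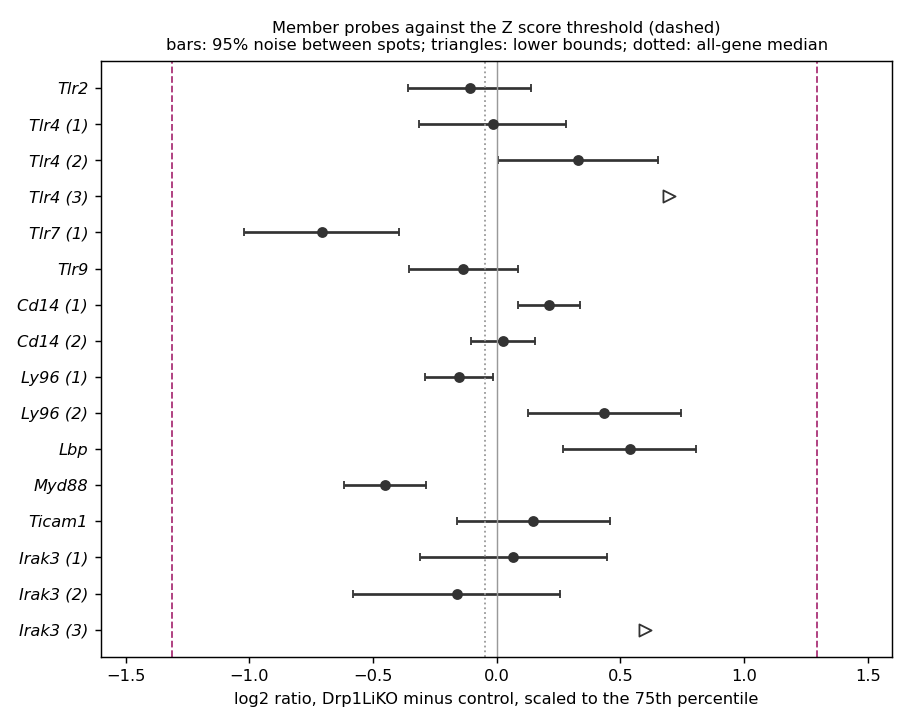
Log2 ratio (*Drp1*LiKO minus control) of the 16 detected probes, with bars for the 95% range of scatter between spots and open triangles for the 2 lower bounds. The dashed lines mark a Z score of 2, the dotted line the median of all detected genes. No point reaches a dashed line, and the probe of *Tlr7* lies farthest to the left at -0.71.

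The adaptors carry the signal from the receptors into the cell. *Myd88*, the adaptor of nearly all Toll-like receptors, has 1 probe (NM_010851, chromosome 9 of mm9, 119245322 to 119245381, minus strand). Its signal was 2243 on the control and 1862 on the *Drp1*LiKO array, a log2 ratio of -0.45 with an interval of -0.62 to -0.28, or 1.37-fold lower in *Drp1*LiKO cells. *Ticam1*, which encodes TRIF, has 1 probe (NM_174989, chromosome 17, 56409265 to 56409324, minus strand). Its signal was 320 and 402, a log2 ratio of 0.15 with an interval of -0.16 to 0.46. *Myd88* was therefore lower by more than the scatter between spots, and *Ticam1* differed by less than it.

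*Irak3* encodes IRAK-M, a kinase-like protein that holds back signaling from MyD88 and is known from monocytes and macrophages. It has 3 probes (NM_028679, chromosome 10 of mm9, minus strand), all of them weak. The first, from 119578999 to 119579058, read 94.3 on the control and 112 on the *Drp1*LiKO array, a log2 ratio of 0.07 with an interval of -0.31 to 0.45. The second, from 119579589 to 119579648, had 38.3 and 38.9, a log2 ratio of -0.16 with an interval of -0.58 to 0.26. The third, which is placed across a gap from 119615854 to 119619639, was not well above background in control cells at 17.3 and was so in *Drp1*LiKO cells at 31.3, a lower bound of 0.60 that normexp put at 0.07. The first 2 probes of *Irak3* thus differed by less than the scatter between spots, on either side of 0.

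In all, 7 of the 14 probes well above background on both arrays had a ratio beyond the scatter between spots. They were those of *Lbp* and *Myd88*, the brightest of *Tlr7* and *Cd14*, the second of *Tlr4*, and both of *Ly96*. The share of all detected probes beyond this scatter was not computed, so whether 7 of 14 is unusual was not tested. The intervals of the second *Tlr4* probe and the brighter *Ly96* probe ended nearest to no difference, at 0.01 and -0.01. Whether these probes lie beyond the scatter thus depends on how the arrays are set equal. By brightest probe the genes ran from *Tlr7* and *Myd88* at the low end through *Ly96*, *Tlr9*, *Tlr2*, *Tlr4*, *Irak3*, *Ticam1* and *Cd14* to *Lbp*, and the interval of each gene overlapped with that of its neighbor in this order.

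The members of the pathway not among the 10 genes were taken from lists. Of 8 other Toll-like receptors 6 were detected, and *Tlr13*, which recognizes bacterial ribosomal RNA in mice, was past the threshold, at 49.8 on the control and 165 on the *Drp1*LiKO array and a log2 ratio of 1.54. The median of the 6 was 0.42, with 3 of them at a bound, and moved to 0.03 with normexp, to -0.05 without a filter on dim probes and to 1.47 without a floor. Of 9 receptor partners and genes of LPS handling 8 were detected with a median of 0.21, and 2 were higher past the threshold. These were *Ly86*, the MD-1 partner of the receptor homolog CD180, at least 5.87-fold, and *Cd36*, a scavenger receptor and partner of TLR2, at least 6.85-fold. Both were not well above background in control cells, at 7.75 and 12.9, and reached 121 and 142 in *Drp1*LiKO cells. Both were thus detected only through the array on which they were high, and with probes above background on both arrays none of the list passed and its median was -0.16.

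Of 24 further adaptors, kinases, ligases and transcription factors, 23 were detected, with a median of -0.01. *Irf7*, an interferon-induced transcription factor that acts below the endosomal receptors, was the only one of these past the threshold. It read 9848 on the control and 43780 on the *Drp1*LiKO array, a log2 ratio of 1.97. Of 14 genes that restrain the pathway, 11 were detected with a median of -0.01, and *Inpp5d*, which encodes the phosphatase SHIP1 of blood cells, was the only one of these past the threshold. It was not well above background in control cells at 9.27 and had 64.0 in *Drp1*LiKO cells, at least 3.09-fold higher.

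**Figure D3:**
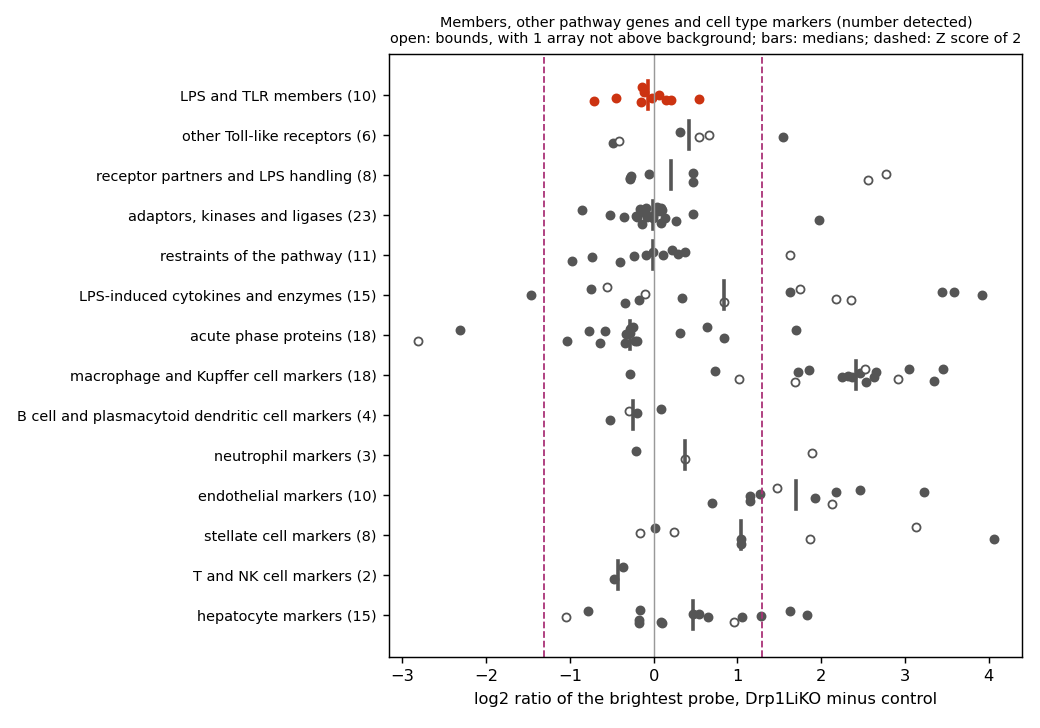
Log2 ratio (*Drp1*LiKO minus control) of the brightest probe of each detected gene in the 10 genes (top row) and in 13 other lists, with the number detected in brackets. Vertical bars are medians, open circles are bounds with 1 array not above background, and dashed lines mark a Z score of 2. The 10 genes lie around 0, whereas most macrophage markers lie to the right of the dashed line.

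Genes that LPS is known to induce were read in the same unstimulated cells. Of 20 such genes 15 were detected, with a median of 0.84 with bounds counted at their value. This median depended on the weak signals, at 0.34 with probes above background on both arrays, 0.30 with normexp background correction, 2.01 without a floor and -0.14 without a filter on dim probes. Of the 15 genes, 7 were higher and 1 was lower past the threshold. The chemokine genes *Ccl4*, *Ccl5* and *Cxcl10* had log2 ratios of 3.92, 3.59 and 3.44. The signal of *Ccl5* was 534 on the control and 7304 on the *Drp1*LiKO array, that of *Ccl4* 28.8 and 495, and that of *Cxcl10* 572 and 7053, and the weaker probe of *Cxcl10*, not well above background in control cells, gave a lower bound of 0.51. The chemokine gene *Ccl3* was at least 5.12-fold, the interferon gene *Ifnb1* at least 4.51-fold and *Il6* at least 3.37-fold higher, each not well above background in control cells. The weaker detected probe of *Il6* gave a lower bound of 0.92 on its log2 ratio, which did not pass the threshold. *Ptgs2*, which encodes the prostaglandin enzyme COX-2, had a log2 ratio of 1.62. Of the 7 higher genes, 4 were thus measured on both arrays. *Ccl2*, which encodes the monocyte chemoattractant MCP1, was lower past the threshold, at 66315 on the control and 27168 on the *Drp1*LiKO array and a log2 ratio of -1.47. *Tnf* had a signal of 122 on both arrays by its brightest probe, a log2 ratio of -0.17. Its weaker probe read 61.4 in control cells and was not well above background in *Drp1*LiKO cells, which put its log2 ratio at -2.22 or lower, past the threshold. *Il1b* was well above background in *Drp1*LiKO cells only, at least 1.78-fold, which did not pass the threshold, and *Nlrp3* and *Il10* were not well above background on either array. Of the acute phase genes, *Lcn2* was higher with a log2 ratio of 1.70, *Hamp*, which encodes the iron hormone hepcidin, was lower with -2.32, and *Crp* was at least 7.02-fold lower, with a signal of 92.6 in control cells and none well above background in *Drp1*LiKO cells.

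The promoter windows of RefSeq (GRCm38.p6, 250 bases before to 50 after the start of each transcript) were searched on both strands for the core of the interferon-stimulated response element, GAAANNGAAA, and for an NF-kB motif, GGGNNTTTCC. A window was at hand for 5 of the 10 genes (*Tlr2*, *Tlr9*, *Myd88*, *Ticam1* and *Irak3*) and for 14 of the 20 LPS-induced genes. *Irak3* and *Nlrp3* had 2 windows each, so counts of genes are not on the same footing as shares of windows. The interferon core stood in 1 of these 5 genes, *Myd88*, and in 1 of these 14 LPS-induced genes, *Cxcl10*, and in 3.44% of all 32851 windows. The NF-kB motif stood in none of the windows of the 5 genes and in 3 of the 14 LPS-induced genes, *Il6*, *Cxcl1* and *Cxcl2*, and in 1.63% of all windows. No window of these genes held both motifs. The stretches of *Myd88*, *Cxcl10* and *Il6* are shown, since these genes had ratios of different sign and size, with the motif in capitals and each read along the strand of its gene. That of *Myd88* is the minus strand of chr9:119340024-119340083, that of *Cxcl10* the minus strand of chr5:92349068-92349127, and that of *Il6* the plus strand of chr5:30013045-30013104.
Myd88: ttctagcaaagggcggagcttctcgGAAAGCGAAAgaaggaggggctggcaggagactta
Cxcl10: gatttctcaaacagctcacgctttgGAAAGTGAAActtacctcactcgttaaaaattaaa
Il6: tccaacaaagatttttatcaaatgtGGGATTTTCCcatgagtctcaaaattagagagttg
The motif begins 40 bases before the start in *Myd88*, 213 in *Cxcl10* and 44 in *Il6*. *Myd88* and *Cxcl10* thus share the core, with log2 ratios of -0.45 and 3.44. A match describes these letters and is not evidence that a factor binds there.

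Several of the 10 genes are also used by macrophages, and the cultures differed in macrophage markers. Of 20 markers of macrophages and Kupffer cells 18 were detected, 17 had a ratio above 0, and 15 were higher past the threshold, with a median log2 ratio of 2.41. The signals of these 18 ran from 4.24 to 4132 in control cells, where 14 of them were well above background, and 42.1 to 9593 in *Drp1*LiKO cells. The other 4 were detected only through the *Drp1*LiKO array and are bounds. With probes above background on both arrays, 12 markers passed the threshold of that setting, and with normexp the median was 1.75. The summed scaled signal of the 18, to which bright probes contribute most, was 2.65-fold that of control. The 2 markers with the highest mean signal over both arrays, *Cd68* and *Itgam*, had log2 ratios of 1.85 and -0.28. *Itgam* was the only detected marker below 0 by its brightest probe, and this probe holds a run of 20 alternating bases. *Timd4* and *Ccr2* were not well above background on either array. Endothelial markers had a median of 1.70, with 6 of 10 past the threshold, and stellate cell markers a median of 1.04, with 3 of 8 detected genes past it. Of the detected genes, 2 endothelial and 4 stellate ones were detected only through the *Drp1*LiKO array and are bounds. With probes above background on both arrays, 7 endothelial genes and 1 stellate gene passed the threshold of that setting. With normexp the medians were 0.93 and 0.47. The brightest endothelial gene, *Egfl7*, had a log2 ratio of 0.70 and the brightest stellate gene, *Acta2*, had 0.02, neither past the threshold. The other detected probes of *Acta2* gave 2.20 and a lower bound of 0.88. Of the B cell and plasmacytoid dendritic cell markers, which are cells rich in *Tlr7* and *Tlr9*, 4 of 8 were detected and none passed. By its brightest probe *Siglech*, a marker of plasmacytoid dendritic cells, read 26239 on the control and 31597 on the *Drp1*LiKO array, a log2 ratio of 0.09. A second detected probe of *Siglech* read only 45.5 and 51.2, a log2 ratio of -0.01. *Ccr9* of the same list and the B cell markers *Cd79a* and *Cd79b* were not well above background. Of the neutrophil markers 3 of 9 were detected. *Ly6g* passed the threshold at least 3.72-fold higher, though not with normexp, with probes above background on both arrays, with a Z score taken within bins of signal or with RefSeq probes alone. *Elane* read 635 and 623, and *S100a8* and *S100a9* were not well above background. Of the T and NK cell markers 2 of 8 were detected and none passed. The brighter, *Cd4*, read 1078 on the control and 881 on the *Drp1*LiKO array by its 1 detected probe of 3, a log2 ratio of -0.47. Of the 15 hepatocyte markers all were detected with a median of 0.47, and 2 passed the threshold, *Ahsg* at 1.83 and *Arg1* at 1.63. The brightest, *Serpina1a* and *Alb*, had log2 ratios of -0.18 and 0.10, and *Cyp2e1* had -0.78. The part of other liver cells in the values of the 10 genes was not tested, and in RNA of a whole culture fewer cells of a type and less RNA per cell cannot be told apart.

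**Figure D4:**
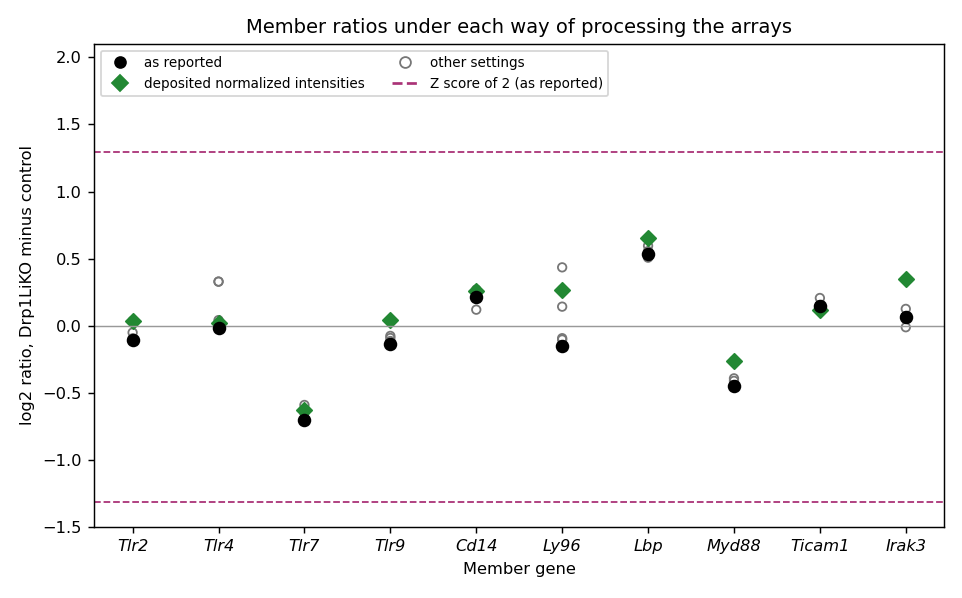
Log2 ratio (*Drp1*LiKO minus control) of each of the 10 genes as reported (filled circles), from the deposited normalized intensities (diamonds), whose *Drp1*LiKO column does not rank the probes as its array does, and under the other ways of processing the arrays (open circles). Dashed lines mark a Z score of 2 as reported, and the thresholds of the other settings are not drawn. No value reaches a dashed line, *Tlr7* and *Myd88* stay below 0 and *Lbp*, *Cd14* and *Ticam1* above it. *Tlr2*, *Tlr4*, *Tlr9*, *Ly96* and *Irak3* change sign under at least 1 setting.

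Under 14 other ways of processing the arrays, none of the 10 genes passed the threshold that went with each. *Tlr7* lay close to that of the robust Z score, which called 7.12% of all detected genes lower, while 7.87% had a ratio below that of *Tlr7*. Among the settings, the deposited normalized intensities hold a *Drp1*LiKO column that does not rank the probes as its array does (Spearman's rho 0.988 across probes, beside 1 for the control column), and the sign of *Tlr2* and *Tlr9* turned in that setting only. The ratio of *Tlr7* stayed between -0.71 and -0.59 in the settings that kept its probe and that of *Myd88* between -0.45 and -0.26. The ratio of *Lbp* stayed between 0.51 and 0.65, that of *Cd14* between 0.12 and 0.27 and that of *Ticam1* between 0.12 and 0.21. The 5 genes that changed sign were *Tlr2* (-0.11 to 0.04), *Tlr9* (-0.13 to 0.04), *Tlr4* (-0.02 to 0.33), *Ly96* (-0.15 to 0.43) and *Irak3* (-0.01 to 0.35).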

How the data were processed

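Cy3-labeled RNA of 2 primary hepatocyte cultures was hybridized to 1-color Agilent 60-mer arrays. The authors deposited the scanner output, with each spot's raw and background-subtracted intensity and no normalization between arrays, in coordinates of mm9. Feature Extraction is named as version 9.5.1.1 in the submitters' notes and 10.7.1.1 in the file header. A table of normalized intensities, deposited with no method given in the sources used here, served as an alternative only. Its detection limit was chosen after the data were seen.

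From the processed intensity deposited, control and outlier spots were left out, the spots of each probe were averaged on the log2 scale, and values were centered on the array's 75th percentile. Probes were kept if either array read them well above background (30275 of 56600). A signal not above background was raised to the lowest one that was (18.2 in control, 15.0 in *Drp1*LiKO cells) unless it was higher itself, and such ratios are bounds. A gene was its brightest probe. The number of arrays, 1 per genotype, limits the precision of every value, and no p-value is given. Genes and lists were chosen with earlier results of these data known. All 10 genes were described with every probe. Of each pathway list, genes past the threshold were named, at most 6, and of the LPS-induced genes also *Tnf*, *Il6*, *Il1b*, *Ifnb1*, *Ccl2*, *Nlrp3* and *Il10*. Of each marker list the 1 or 2 brightest genes were named, and of some lists also defining markers at background. *Ptgs2* is named beyond the limit of 6, *Cxcl1* and *Cxcl2* for their motif, and *Ahsg*, *Arg1* and *Cyp2e1* among the markers, chosen after their values were seen. The main steps from spot signals to gene calls were tested on simulated data, with changes larger than those of the 10 genes. The intervals, the alternatives, the list summaries and the motif search were not tested in this way. The value of 1 gene among the markers is left out here. Exons and untranslated regions were not placed here. The software was limma 3.58.1 in R 4.3.3, and Python 3.11.15 with pandas 2.3.3, numpy 2.4.6 and matplotlib 3.10.9.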

Additional observations from a re-analysis of the deposited data

How the results depend on the processing

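No paired analysis was possible because each genotype had 1 array. Of 14 alternatives, 12 were set beforehand and 2, which left out probes with a run of alternating bases or without a RefSeq accession, were chosen after seeing the data. None moved any of the 10 genes past its threshold, and their median stayed between -0.06 and 0.09. With the deposited intensities 8 of the 10 genes had a ratio above 0, beside 4. Pathway list counts that changed by over 1.5 times follow, and causes were not tested where the setting does not give them. Restraints of the pathway had 0 higher and 1 lower gene with normexp and with a Z score taken within bins of signal, 0 higher with probes above background on both arrays, and 1 lower with a robust Z score. Probes above background on both arrays also left 0 receptor partners and 4 LPS-induced genes higher and 1 acute phase gene lower. Without a floor, 2 other Toll-like receptors and 0 acute phase genes were higher and 0 LPS-induced genes lower. The robust Z score gave 2 higher and 4 lower acute phase genes and 1 lower adaptor or kinase. The Z score within bins of signal gave 0 higher Toll-like receptors and 4 lower acute phase genes. No filter gave 2 higher acute phase genes, and RefSeq probes alone 1 lower. Over all genes, no filter gave 1345 higher and 587 lower, the robust Z score 1715 and 1435, and a 2-fold call 1063 and 916, beside 697 and 557. Higher marker counts ran from 12 to 17 for macrophages, 6 to 10 for endothelial, 1 to 5 for stellate and 0 to 5 for hepatocyte markers, and up to 1 for the others.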
